A study of Homo sapiens with 10 samples.

Results

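Integrins that bind the extracellular matrix outside the hemidesmosome were followed in MCF10A cells, a non-transformed human breast epithelial line. The set holds 10 genes, ITGA1, ITGA2, ITGA3, ITGA5, ITGAV, ITGB1, ITGB3, ITGB5, ITGB6 and ITGB8, listed by gene symbol. No measured value entered the rule, but earlier results of these data were known when the list was made. All 10 were found among the 26256 genes of the count table for untreated cells and among the 55736 genes of the table for the Nutlin-3a experiment, and they are 10 of the 26 integrin subunits looked up in both. RNA-seq of poly(A) RNA was read for parental MCF10A cells and for G12V cells, which are MCF10A cells that received the HRas G12V oncogene by lentivirus and were selected with hygromycin (2 replicates each). A GFP vector had been used to follow the transduction, and the controls, labelled WT, are described by the study as parental cells. The study also reports that G12V cells at first stopped dividing and resumed growth some weeks later. Oncogene, virus, selection and this arrest and regrowth therefore cannot be told apart here. In the second experiment MCF10A cells were given 10 µM Nutlin-3a, an inhibitor of the binding of MDM2 to p53, or the solvent DMSO, for 4 h (3 replicates each). All cells derive from a single line grown with EGF, insulin, hydrocortisone, cholera toxin and horse serum.

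Integrins are receptors made of 1 alpha and 1 beta subunit, which link the matrix outside the cell to actin inside it. The beta 1 subunit pairs with many alpha subunits, among them alpha 1 and alpha 2 for collagens, alpha 3 for laminins and alpha 5 for fibronectin, while alpha V pairs with beta 1, beta 3, beta 5, beta 6 or beta 8. The alpha V receptors bind RGD motifs in vitronectin, fibronectin and the latency peptide of TGF-beta, and alpha V beta 6 is an epithelial receptor that can release active TGF-beta. The hemidesmosome integrin, alpha 6 beta 4, anchors keratin filaments to the basement membrane and serves only as a point of reference here.

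The libraries held 21538593 to 23683975 counts in the untreated cells and 15453226 to 17378734 in the Nutlin-3a experiment. Values are given as CPM, counts scaled to a common library size with edgeR's TMM factors. Fold changes are printed as log2FC, the log2 fold change of G12V over MCF10A cells or of Nutlin-3a over DMSO, and a gene is called differentially expressed (DE) where edgeR's quasi-likelihood (QL) test gives an adjusted p below 0.05 and the log2FC exceeds 0.5 in size. HRAS stood at 69.3 ± 4.77 CPM in MCF10A and at 573 ± 82.0 CPM in G12V cells (SD, n = 2 each, log2FC 3.05, SE 0.23), with the introduced and the endogenous transcript counted together. The p53 targets MDM2 and CDKN1A were both DE higher under Nutlin-3a, with log2FCs of 2.54 and 2.16. Of 5 epithelial markers, KRT5, CDH1 and EPCAM were DE lower in G12V cells and KRT8 and KRT18 were not DE, and their summed level was 4500 to 5482 CPM in MCF10A and 1361 to 1661 CPM in G12V libraries. Of 5 mesenchymal markers, CDH2, ZEB1 and SPARC were DE higher and VIM and PDGFRB were not DE, with summed levels of 893 to 1082 and 1537 to 2023 CPM. The leukocyte markers PTPRC and CD3E had at most 1 count in any of these 4 libraries, and the leukocyte sum (66.1 to 90.8 CPM in MCF10A and 34.0 to 63.6 CPM in G12V) came almost wholly from CD14 and ITGB2. The 5 endothelial markers summed to 8.68 to 33.0 and 9.92 to 15.3 CPM with VWF at no more than 4 counts. Of the 3 that were tested, none was DE by edgeR's QL test, and 2 had an unadjusted p under 0.05 (25.6% of all genes). DESeq2 called 2 of them DE (16% of all genes) and edgeR's exact test 1 (17.6%). The part of these shifts in the integrin values was not tested, and in bulk RNA fewer cells of a kind and less RNA per cell cannot be told apart.

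Between MCF10A and G12V cells, ITGB6 was nearly lost, ITGA2 fell 2.96-fold and ITGA5 rose 3.70-fold, while the transcripts of the most abundant subunits, ITGB1 and ITGA3, were not DE. All 10 genes passed the filter on low counts, ITGB6 through its MCF10A libraries alone. DE calls were made for 1 gene in the higher direction and for 2 genes in the lower direction, against 5.01% and 5.95% of all 14376 genes tested (11% in either direction). An unadjusted p under 0.05 was reached by the same 3 genes and by 25.6% of all genes. The log2FC was negative for 9 of the 10 genes, with a median of -0.39, beside -0.0011 over all genes tested. The libraries of the 2 groups did not overlap for 5 of the 10 genes (1 higher and 4 lower), against 54.8% of all genes (27.5% and 27.4%), so that a lack of overlap was no more frequent here than elsewhere.

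**Figure D1:**
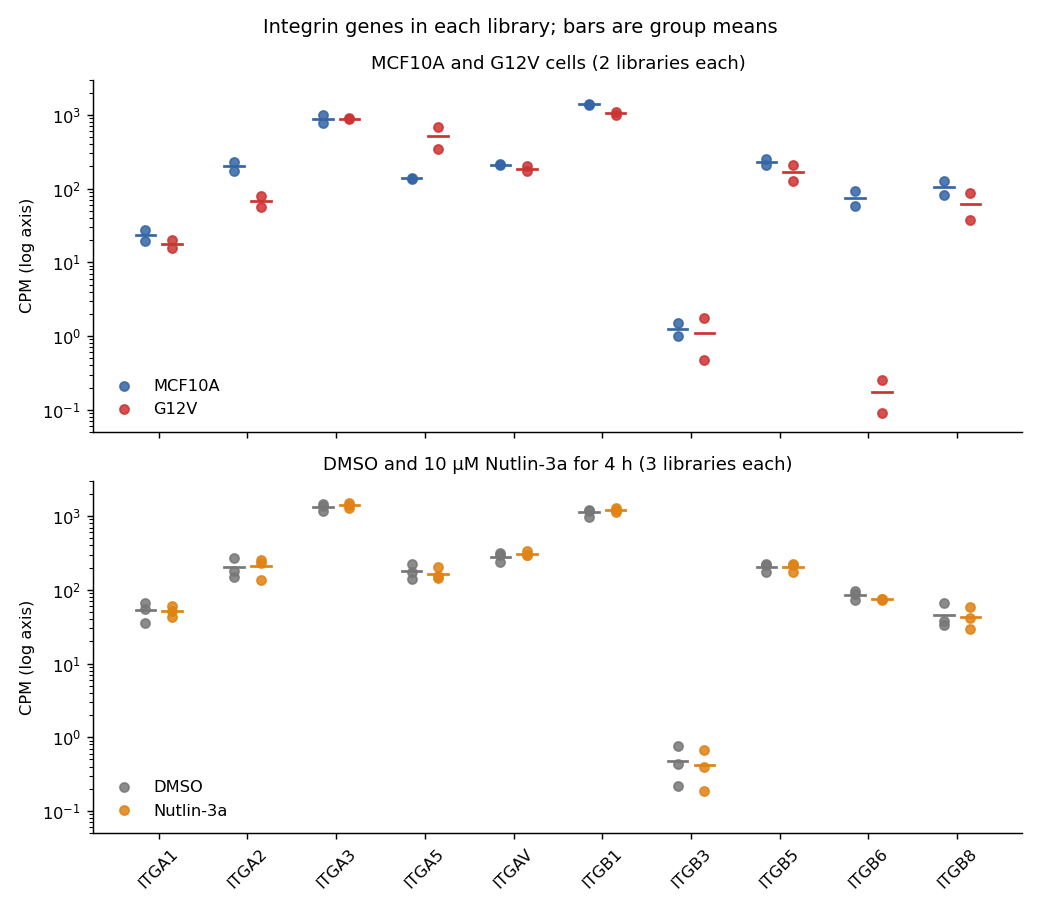
Level of each integrin gene in each library, in CPM on a log axis, for the untreated cells (upper panel, 2 libraries a group) and the Nutlin-3a experiment (lower panel, 3 libraries a group). Points are libraries and bars are group means, and the ITGB6 points of G12V cells lie at 0.257 and 0.0892 CPM, below those of every other gene in that panel.

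Per kb of the canonical transcript, the level in MCF10A cells was highest for ITGB1, the common beta subunit, at 372 CPM per kb, followed by ITGA3 at 181. ITGB5, ITGA5, ITGAV and ITGA2 came next, at 52.0, 32.5, 30.04 and 25.8 CPM per kb, and ITGB6 and ITGB8 had 16.2 and 11.8 CPM per kb with overlapping libraries. ITGA1 at 2.17 and ITGB3 at 0.211 CPM per kb closed the order. In G12V cells ITGA5, at 120 CPM per kb, moved up to stand next after ITGB1 (281) and ITGA3 (181), and ITGB6 moved from the seventh to the last place at 0.0372 CPM per kb. ITGA2 and ITGB8, with 8.70 and 6.96 CPM per kb, overlapped there, and the other neighbours in either order did not. The place of ITGB1 rests on the transcript length used, since the union of its annotated exons has 11122 bases against 3735 in the canonical transcript, and with union lengths ITGB1 stood below ITGA3 in both groups and below ITGA5 in G12V cells.

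The beta subunits of the alpha V receptors are described first. ITGB6, which lies on chromosome 2 from 160956177 to 161056824 (hg19, minus strand) and overlaps no other listed gene, encodes the beta subunit of the epithelial TGF-beta-activating receptor. It had 92.2 and 58.2 CPM in the MCF10A replicates, from 2028 and 1322 counts, and 0.257 and 0.0892 CPM in the G12V replicates, from 6 and 2 counts. Both G12V libraries were far below both MCF10A libraries. The log2FC was -8.71 (SE 0.50, 95% interval -9.93 to -7.49), with an adjusted p of 8.46e-04 from edgeR's QL test. Over the pooled counts, 3350 against 8, the level was 429-fold lower, with an interval of 218 to 995 for counting error only.

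The 3 DE genes differed in the sequence just upstream of their RefSeq start, which is shown here so that the base composition can be read beside the values. RefSeq (GRCh38.p14 table) gave a window for 8 of the 10 genes, and each matched the GRCh37 genome, the build of the count tables, at 1 place. Bases from the first annotated exon base of the gene onwards, or from a start of the gene inside the window, were removed. The lines run 5′ to 3′ on the strand of the gene. In the annotation of the Nutlin-3a experiment ITGB6 spans 160998492 to 161128399, so that its printed bases lie inside the gene there. Capitals mark CACCTG, an E-box, in ITGB6 and GGGCGG, the GC box, or its complement in ITGA2 and ITGA5.
ITGB6, chr2:161056825-161057033, minus strand: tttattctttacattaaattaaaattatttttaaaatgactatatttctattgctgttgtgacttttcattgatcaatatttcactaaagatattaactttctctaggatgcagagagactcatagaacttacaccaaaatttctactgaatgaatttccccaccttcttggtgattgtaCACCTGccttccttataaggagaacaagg
ITGA2, chr5:52284932-52285155, plus strand: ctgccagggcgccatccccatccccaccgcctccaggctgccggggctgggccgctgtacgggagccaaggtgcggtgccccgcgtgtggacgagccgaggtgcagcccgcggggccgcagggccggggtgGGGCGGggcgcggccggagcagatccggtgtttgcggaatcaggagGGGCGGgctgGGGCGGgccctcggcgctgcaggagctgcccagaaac
ITGA5, chr12:54813245-54813300, minus strand: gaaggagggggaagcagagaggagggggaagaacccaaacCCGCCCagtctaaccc
Over the full 250 bases before the start, GC content was 30% for ITGB6, 76.4% for ITGA2 and 70% for ITGA5, beside 62% to 78.4% for the other 5 genes with a window and a median of 58% over 35116 windows. Searched on both strands, GGGCGG was present for ITGA2, ITGA5, ITGB1, ITGB5 and ITGB8, and in 42.6% of all windows. CACCTG was present for ITGB5 and ITGB6 and in 17.5% of all windows, and CCGGAA, the core of ETS sites, for ITGB1 alone among the 8 and in 14.5%. TGANTCA, the AP-1 site, and TATAAA, the TATA box, were in none of the 8 windows and in 6.57% and 10.7% of all windows, and a p53 half-site was in none of the 8 and in 5.57%. These matches are letters in a window and do not show that a factor binds there.

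The other partners of alpha V were not DE. ITGB5 (chromosome 3, 124480795 to 124606152), whose receptor with alpha V binds vitronectin, had 207 and 255 CPM in MCF10A and 128 and 211 CPM in G12V cells. These libraries overlapped, and the log2FC was -0.45 (SE 0.28, 95% interval -1.14 to 0.25). ITGB8 (chromosome 7, 20370725 to 20455382), which also binds latent TGF-beta as alpha V beta 8, had 82.7 and 128 CPM in MCF10A and 37.0 and 88.0 CPM in G12V cells, a log2FC of -0.76 (SE 0.43, 95% interval -1.81 to 0.30). The second G12V library was above the first MCF10A library, and without G12V replicate 2 the log2FC was -1.51 and ITGB8 was DE, with an adjusted p of 0.0119 from edgeR's QL test (0.00190 to 0.780 over all alternatives). ITGB3 (chromosome 17, 45331208 to 45390077), the beta subunit of the classical vitronectin receptor, had only 33 and 23 counts in MCF10A and 11 and 39 counts in G12V cells. Its interval, -1.78 to 1.41 on the log2 scale, was the widest of the set, so that only a large rise or fall could have been detected. The parts of low counts and of the spread between the G12V libraries in this width were not tested.

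ITGAV (chromosome 2, 187454790 to 187545629), the alpha subunit that these beta subunits share, had 210 and 213 CPM in MCF10A and 172 and 200.2 CPM in G12V cells. Both G12V libraries were below both MCF10A libraries, but the log2FC of -0.18 (SE 0.19, 95% interval -0.64 to 0.27) did not pass the test. The make-up of its partners other than ITGB1 was therefore read as shares of the CPM per kb summed over ITGB3, ITGB5, ITGB6 and ITGB8, as a description with no test. ITGB6 held 26.2% and 14.9% of this sum in the MCF10A replicates and 0.167% and 0.0333% in the G12V replicates. ITGB5 held 64.7% ± 4.71 (SD, n = 2) in MCF10A and 84.8% ± 3.34 (SD, n = 2) in G12V cells, while ITGB8 held 14.5% ± 3.38 (SD, n = 2) and 14.7% ± 3.24 (SD, n = 2). ITGB3 stayed under 1% of the sum in every library. The sum itself was 80.2 ± 6.03 CPM per kb (SD, n = 2) in MCF10A and 45.4 ± 17.3 (SD, n = 2) in G12V cells. The larger share of ITGB5 in G12V cells thus stood beside a lower, not a higher, mean CPM of ITGB5 itself.

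**Figure D2:**
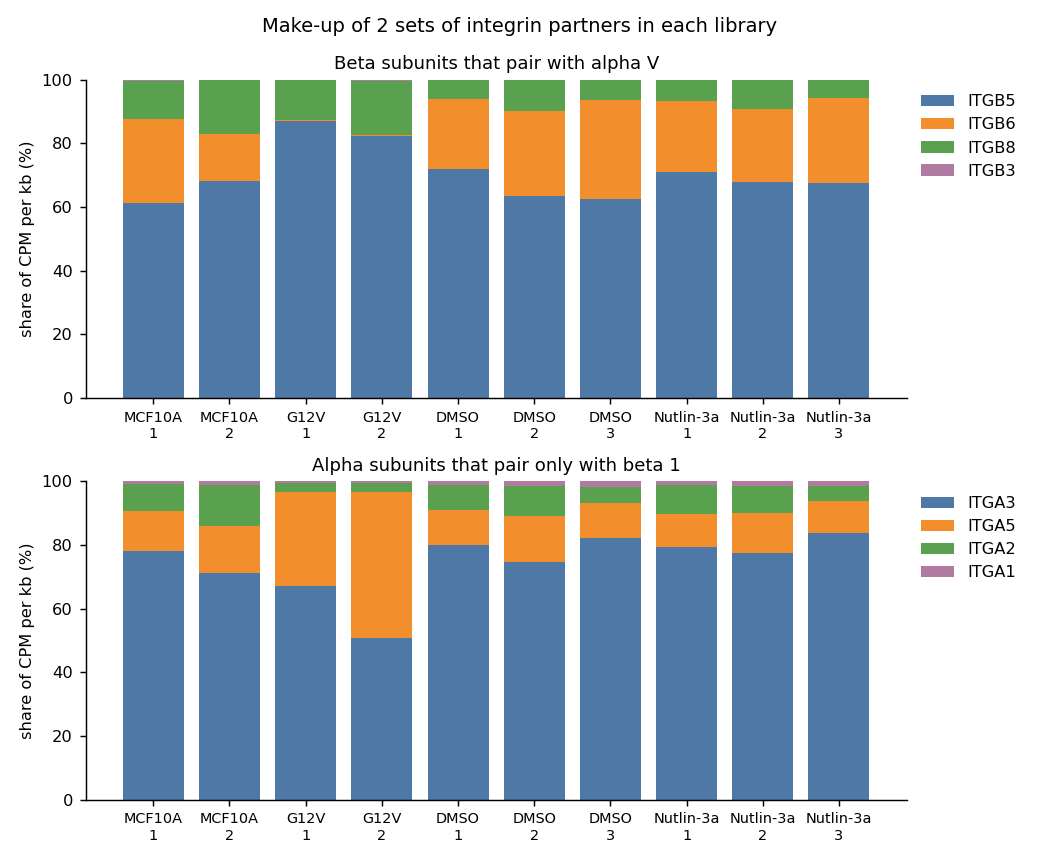
Share of the CPM per kb held by each subunit in each library, in percent. The upper panel sums ITGB3, ITGB5, ITGB6 and ITGB8, beta subunits that pair with alpha V. The lower panel sums ITGA1, ITGA2, ITGA3 and ITGA5, alpha subunits that pair with beta 1. ITGB1 is outside the upper sum, and ITGAV and other alpha subunits are outside the lower sum. ITGB6 fills 14.9% to 31.1% of the upper bars except those of G12V cells, where it is under 1%, and ITGA5 is 13.5% ± 1.55 (SD, n = 2) of the lower bars in MCF10A and 37.6% ± 11.4 (SD, n = 2) in G12V cells.

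Among the alpha subunits that pair with beta 1, the fibronectin receptor subunit ITGA5 (chromosome 12, 54789045 to 54813050, minus strand) rose. It had 136.7 and 139.5 CPM in the MCF10A replicates and 344 and 677 CPM in the G12V replicates. Both G12V libraries were above both MCF10A libraries, and the 2 G12V libraries lay far apart from each other. The log2FC was 1.89 (SE 0.35, 95% interval 1.04 to 2.74), or 3.70-fold, with an adjusted p of 0.0233 from edgeR's QL test. An uncharacterised gene, LOC102724050, overlaps ITGA5 on the opposite strand, and whether the counting used strand is not given in the sources used here.

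The collagen receptor subunit ITGA2 (chromosome 5, 52285156 to 52390609), which overlaps no other gene of that table, fell. It had 176 and 228 CPM in the MCF10A replicates and 57.2 and 79.3 CPM in the G12V replicates, with no overlap between the groups. The log2FC was -1.57 (SE 0.25, 95% interval -2.17 to -0.96), or 2.96-fold lower, with an adjusted p of 0.0143 from edgeR's QL test. ITGA1, the other collagen receptor subunit of the set, lies just before ITGA2 on the same strand (chromosome 5, 52084136 to 52249485) and was not DE. It had 19.6 and 27.1 CPM in MCF10A and 15.7 and 20.2 CPM in G12V cells, which overlapped, and a log2FC of -0.38 (SE 0.27, 95% interval -1.04 to 0.28). PELO lies within the span of ITGA1 on the same strand. The ratio of ITGA2 to ITGA1 counts was 8.97 and 8.43 in the MCF10A and 3.63 and 3.92 in the G12V libraries, and that of ITGA5 to ITGA2 counts 0.778 and 0.611 against 6.02 and 8.53. These count ratios are within a library and do not depend on its scaling.

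The laminin receptor subunit ITGA3 (chromosome 17, 48133340 to 48167849) was not DE, with means of 886 ± 146 CPM in MCF10A and 884 ± 22.3 CPM in G12V cells (SD, n = 2). Its libraries held 990 and 783 CPM in MCF10A and 899.5 and 868 CPM in G12V cells, with a log2FC of -0.0044 (SE 0.24, 95% interval -0.60 to 0.59). ITGB1 (chromosome 10, 33189246 to 33247293), their common partner, had 1398 and 1383 CPM in MCF10A and 995 and 1104 CPM in G12V cells. Both G12V libraries were lower, but the log2FC of -0.41 (SE 0.24, 95% interval -0.99 to 0.18) did not pass the test. As shares of the CPM per kb summed over ITGA1, ITGA2, ITGA3 and ITGA5, a set chosen after the values were seen, ITGA3 held 74.8% ± 4.89 (SD, n = 2) in MCF10A and 59.1% ± 11.5 (SD, n = 2) in G12V cells, and ITGA2 held 10.8% ± 3.04 (SD, n = 2) and 2.78% ± 0.167 (SD, n = 2). This sum leaves out ITGAV, which also pairs with beta 1, and the alpha subunits outside the 10 genes, so it is not the whole of the beta 1 partners.

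**Figure D3:**
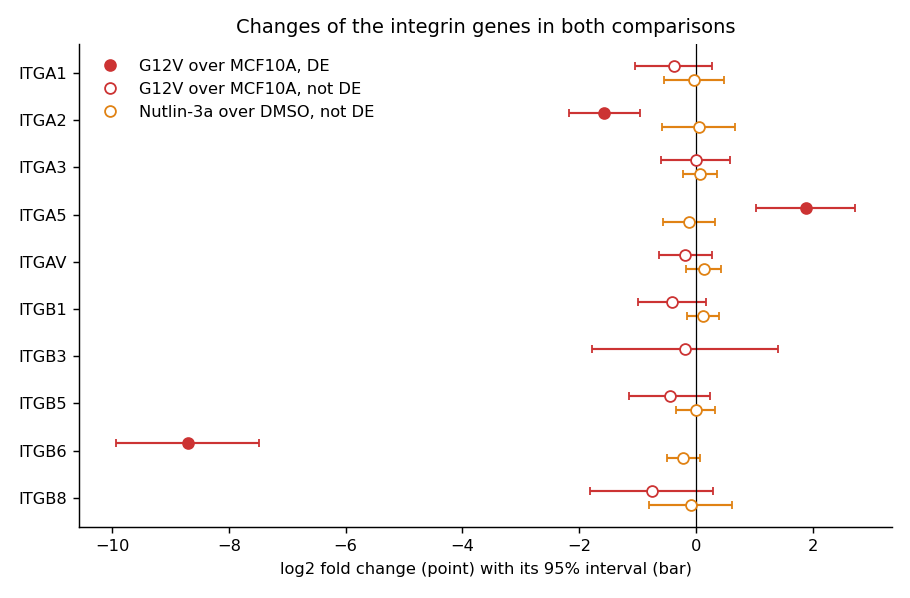
Log2 fold change (points) with its 95% interval (bars) for each integrin gene, in G12V over MCF10A cells (red, filled where DE) and in Nutlin-3a over DMSO (orange), from fits without pairing. The intervals of ITGA2, ITGA5 and ITGB6 exclude 0 in G12V cells, and ITGB3 has no Nutlin-3a point because its counts did not pass the filter.

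The 3 calls depended on 1 control library. Without MCF10A replicate 1, no gene of 14883 was DE by edgeR's QL test (2830, or 19%, at an unadjusted p under 0.05), with a smallest adjusted p of 0.0502. The log2FCs of the 3 genes kept their size there, at -8.31 for ITGB6 (adjusted p = 0.0548), -1.72 for ITGA2 (adjusted p = 0.107) and 1.88 for ITGA5 (adjusted p = 0.202), and all 3 had an unadjusted p under 0.05. Over all alternatives the adjusted p ran from 1.47e-51 to 0.0548 for ITGB6, from 2.14e-06 to 0.107 for ITGA2 and from 2.95e-06 to 0.202 for ITGA5. The log2FC of ITGB6 was -9.63 without G12V replicate 1 and -8.17 without G12V replicate 2, that of ITGA5 was 2.29 and 1.32, and that of ITGA2 was -1.35 and -1.82.

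**Figure D4:**
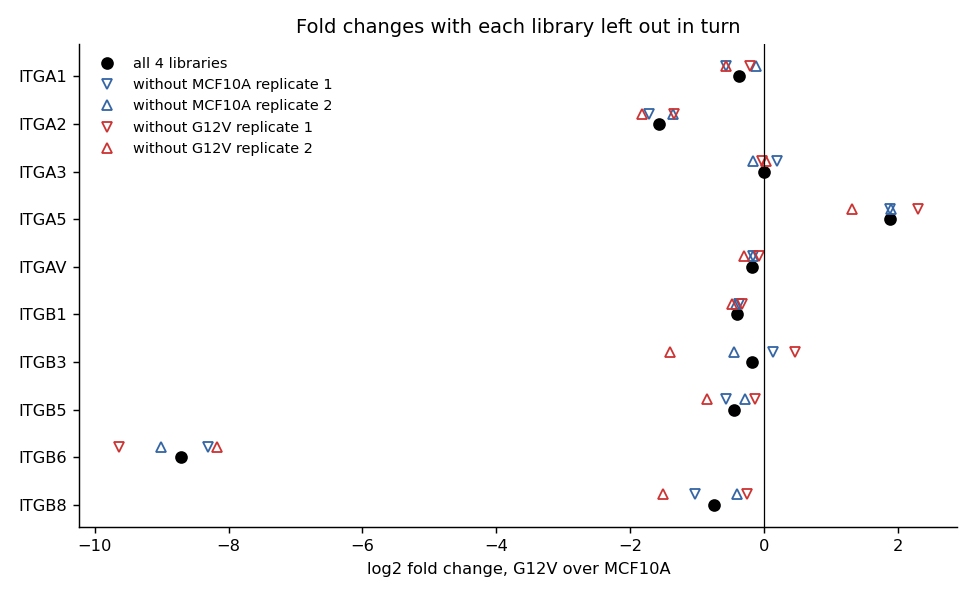
Log2 fold change of each integrin gene in G12V over MCF10A cells, from all 4 libraries (black) and with 1 library left out (triangles). ITGA2, ITGA5 and ITGB6 keep their direction in each case, while the points of ITGA3 (-0.17 to 0.20) and ITGB3 (-1.41 to 0.47) lie on both sides of 0.

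After 4 h of Nutlin-3a no integrin gene of the set was DE. Of the 10 genes, 9 passed the filter on low counts. By edgeR's QL test without pairing 0 were DE and 0 had an unadjusted p under 0.05, as by DESeq2 and edgeR's exact test. With the libraries paired by a replicate block, the QL test gave 0 DE. ITGB6 alone then had an unadjusted p under 0.05, as had 11.7% of all genes. ITGB6 also reached this level by the unpaired QL test without DMSO replicate 1, as did 3.22% of all genes. Among all 13529 genes tested, 0.17% were DE (0.155% higher and 0.0148% lower) by the first test, 0.673% by DESeq2 and 0.621% by the exact test, and 3.42% had an unadjusted p under 0.05. The libraries of the treatments overlapped for all 9 genes, where 8.07% of all genes did not overlap (3.7% higher and 4.38% lower). ITGB6, the gene nearly lost in G12V cells, had 72.6, 96.6 and 89.1 CPM in DMSO and 74.2, 76.1 and 72.4 CPM in Nutlin-3a. The Nutlin-3a libraries lay within or near the lower end of the DMSO range, and the log2FC was -0.21 (SE 0.12, 95% interval -0.50 to 0.07, adjusted p = 0.9997 from edgeR's QL test). By replicate number, which pairs these libraries, its log2 ratio was 0.03, -0.34 and -0.30.

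The SEs and intervals given for the integrin genes under Nutlin-3a come from the QL fit without pairing. They therefore include the spread between replicate pairs. ITGA5 had 142, 226 and 172 CPM in DMSO and 143, 201 and 153 CPM in Nutlin-3a, a log2FC of -0.12 (SE 0.19, 95% interval -0.57 to 0.32). ITGA2 had 181, 274 and 148 CPM in DMSO and 234, 251 and 138 CPM in Nutlin-3a, a log2FC of 0.05 (SE 0.27, 95% interval -0.58 to 0.67). For both genes replicates 2 and 3 differed far more from each other than the treatments did. The 95% intervals of the abundant ITGB1 and ITGA3 were -0.16 to 0.39 and -0.22 to 0.36 on the log2 scale, and those of ITGAV and ITGB5 were -0.17 to 0.44 and -0.34 to 0.33. The intervals of ITGA1, -0.54 to 0.48, and of ITGB8, -0.80 to 0.62, were wider. ITGB3 had 4, 7 and 13 counts in DMSO and 3, 11 and 6 counts in Nutlin-3a, too few to be tested.

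The order of the levels per kb in DMSO was that of untreated MCF10A cells, although the tables use different annotations and their levels are not compared by a test. ITGB1 and ITGA3, at 300.3 and 273 CPM per kb, overlapped, as did ITGB5, ITGA5 and ITGAV at 46.4, 42.4 and 40.2 and ITGB8 and ITGA1 at 5.12 and 4.90 CPM per kb. ITGA2, at 25.6, overlapped with ITGAV above it and with ITGB6 (18.6) after it. ITGB6 held 26.6% ± 4.51 (SD, n = 3) of the summed beta partners of alpha V in DMSO and 24% ± 2.38 (SD, n = 3) in Nutlin-3a. For ITGB5 these shares were 66.1% ± 5.17 (SD, n = 3) and 68.8% ± 1.87 (SD, n = 3). Each of these differences was smaller than the SD over the DMSO libraries, a measure that does not use the pairing. By replicate number, the ITGB6 share was 22.1%, 26.8% and 31.1% in DMSO and 22.4%, 22.9% and 26.8% in Nutlin-3a. The ratio of ITGB6 to ITGAV counts was 0.304, 0.311 and 0.298 in DMSO and 0.249, 0.223 and 0.247 in Nutlin-3a. This ratio, picked after the values were seen, was lower in each pair and was not tested.

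Beyond the set, 12 of the 16 other integrin subunits were tested in G12V cells, with a median log2FC of 0.31. Of these, 1 was DE higher and 2 were DE lower, against 5.01% and 5.95% of all genes tested. ITGA7, a laminin receptor subunit, rose from 0.379 ± 0.150 to 3.02 ± 1.66 CPM (SD, n = 2), and the leukocyte subunit ITGB2 fell from 50.9 ± 4.02 to 18.2 ± 8.29 CPM (SD, n = 2). Of the hemidesmosome pair, ITGA6 fell from 862 ± 114 to 226 ± 4.71 CPM (SD, n = 2), a log2FC of -1.93 (SE 0.23, adjusted p = 0.00621 from edgeR's QL test). ITGB4 had 3200 ± 1526 and 633 ± 387 CPM (SD, n = 2), a log2FC of -2.34 (SE 0.57), and missed the threshold at an adjusted p of 0.0534 from the same test. The fall of ITGA6 was therefore of a size close to that of ITGA2, and the difference between the 2 falls was not tested.

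Of 21 matrix ligands of integrins, 17 were tested, with a median log2FC of 0.15. DE calls were 2 higher and 5 lower, against 5.01% and 5.95% of all genes tested. EDIL3 and POSTN, counted here, passed the filter on low counts only through the group in which they were high. COL4A1, a basement membrane collagen, rose from 59.6 ± 16.9 to 194.8 ± 60.9 CPM (SD, n = 2). EDIL3, an RGD ligand of alpha V integrins, had 0 counts in both MCF10A libraries and 13 and 53 counts in the G12V libraries, at least 10.7-fold higher against 3 counts per library. LAMA3, a laminin chain of epithelial basement membranes, fell from 849.5 ± 28.4 to 42.9 ± 1.53 CPM (SD, n = 2). FN1, which encodes fibronectin, fell from 883 ± 433 to 138 ± 91.9 CPM (SD, n = 2), a log2FC of -2.68 (SE 0.59), whereas its receptor subunit ITGA5 rose. POSTN, an alpha V ligand, had 378 counts in MCF10A and 1 count in G12V cells, 387-fold lower with a counting interval of 69.1 to 15338. THBS1, named after its values were seen, fell from 2029 ± 1017 to 438 ± 71.1 CPM (SD, n = 2).

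Of 7 genes of the latent TGF-beta complex, the substrate of alpha V beta 6 and alpha V beta 8, 5 were tested (median log2FC -0.09) and 0 were DE by edgeR's QL test, while 4 had an unadjusted p under 0.05 and 3 were DE by DESeq2 and 3 by edgeR's exact test (16% and 17.6% of all genes). Those 4, named after their values were seen, were TGFB1 (log2FC 0.93, SE 0.28), TGFB3 (1.75, SE 0.43), LTBP1 (-1.19, SE 0.30) and LTBP3 (-0.74, SE 0.24), with adjusted p of 0.0929, 0.0541, 0.0570 and 0.117 from edgeR's QL test. The remaining tested gene, LTBP4, had a log2FC of -0.09 (SE 0.19).

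Among 37 adaptors that act at integrin tails and adhesions, 35 were tested, with a median of -0.16. Of them 2 were DE higher and 3 were DE lower, against 5.01% and 5.95% of all genes tested. FERMT3 and NEDD9, counted here, passed the filter on low counts only through the group in which they were high. FERMT2, or kindlin-2, which helps to activate integrins, rose from 33.1 ± 0.989 to 82.7 ± 1.95 CPM (SD, n = 2), and its relative FERMT3 had 3 counts in MCF10A and 34 in G12V cells, a ratio of 11.1 with a counting interval of 3.48 to 56.3. NEDD9, a scaffold of the Cas family, had 349 counts in MCF10A and 2 in G12V cells, 179-fold lower with a counting interval of 49.1 to 1482. TNS4, a tensin, fell from 1229 ± 153 to 303 ± 28.8 CPM (SD, n = 2), and PARVB, a parvin, from 11.5 ± 1.43 to 0.898 ± 0.181 CPM (SD, n = 2).

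All 11 membrane partners of integrins were tested, with a median of -0.53. There were 1 DE higher and 3 DE lower, against 5.01% and 5.95% of all genes tested. PLAUR, the urokinase receptor, rose from 12.8 ± 5.76 to 35.6 ± 1.96 CPM (SD, n = 2). The tetraspanins CD82 and CD9 fell from 129 ± 13.4 to 8.84 ± 2.52 CPM (SD, n = 2) and from 211 ± 55.0 to 75.6 ± 19.4 CPM (SD, n = 2), and SLC3A2, the CD98 heavy chain, from 558 ± 109 to 233 ± 11 CPM (SD, n = 2). Like the integrin genes, these genes lost their calls without MCF10A replicate 1, as did every other gene of that fit. Under Nutlin-3a, 0 genes of these 5 lists were DE by edgeR's QL test, DESeq2 or edgeR's exact test, and 1, PLAUR (log2FC -0.24, SE 0.10), had an unadjusted p under 0.05. When these libraries were paired by a replicate block, THBS1 alone among them was DE (log2FC -0.53, SE 0.07, adjusted p = 0.00288 against 0.9997 without the block, both by edgeR's QL test), where 1.22% of all genes were.

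**Figure D5:**
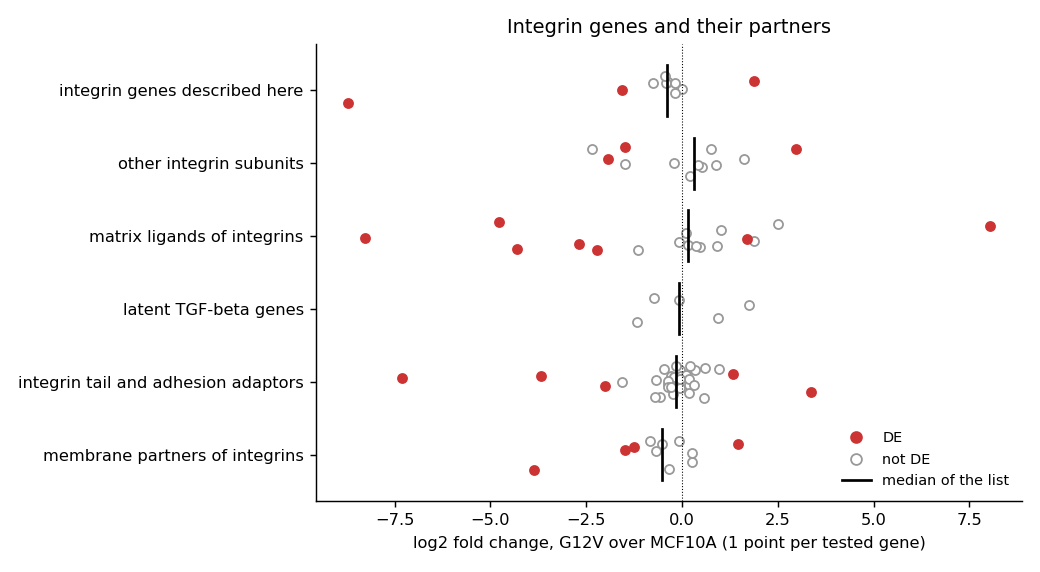
Log2 fold change in G12V over MCF10A cells of every tested gene of the integrin set and of 5 lists of related genes, 1 point a gene, filled where DE, with the median of each list as a bar. The medians lie between -0.53 and 0.31, and the point of EDIL3 at the far right has no count in MCF10A, so that its place depends on the prior count.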

How the data were processed

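Libraries were made from poly(A) RNA. Reads were mapped by the authors to hg19 (TopHat), assigned to genes (HTSeq) and deposited as counts that had not been normalized, in 1 table per experiment. Annotation, strand setting and treatment of overlapping genes are not given in the sources used here. The 2 comparisons were fitted separately in R 4.3.3 with edgeR 4.0.16 and limma 3.58.1: filterByExpr, TMM factors, the quasi-likelihood F-test over all genes and Benjamini-Hochberg adjustment. The prior count of the fold changes was 0.125, and an SE is the size of the log2FC divided by the root of F. The protocol calls the replicates biological. The alternatives tried were edgeR's exact test, DESeq2 1.42.0, other scaling factors, filters, a prior count of 2, a replicate block and the omission of each library. The fits were tested on simulated data.

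Named were all 10 members, HRAS, MDM2, CDKN1A, ITGA6, ITGB4 and at most the 4 largest DE genes per direction of each list. A gene that this rule selects and a cell type marker are not reported here. The members and lists were chosen with earlier results of these data known. Transcript lengths came from GENCODE v44 lifted to GRCh37. File starts count from 0 and were printed 1-based. Counting intervals (95%) and bounds against 3 counts cover counting error only, as reads can be PCR copies of 1 molecule.

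In the Nutlin-3a experiment a library's deviations from its group mean had correlations of 0.641, 0.649 and 0.676 with the library of equal number and of -0.499 to -0.206 with the rest, so the labels' numbers were taken to pair DMSO with Nutlin-3a. Centring on the group mean pushes the correlations with the rest below 0 where those of equal number are above 0.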

Additional observations from a re-analysis of the deposited data

How the results depend on the processing

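In G12V against MCF10A cells, ITGA5 was DE higher and ITGA2 and ITGB6 were DE lower under every alternative except the omission of MCF10A replicate 1, and over the omissions of 1 library 0 to 1 members were DE higher and 0 to 3 DE lower. With the replicate block ITGB8 was also DE lower (log2FC -0.85, adjusted p = 0.00190 by edgeR's test, 0.00190 to 0.780 over all alternatives). ITGB1 (log2FC -0.41, adjusted p = 0.0409) and ITGB5 (log2FC -0.48, adjusted p = 0.0258) missed only the size threshold in that QL fit. An adjusted p below 0.05 was reached there by 4710 of 14376 genes. The samples of this comparison share only a number. The correlation for equal numbers was 0.535, a single value, since 2 libraries deviate from their mean by equal and opposite amounts. The replicate block gave 4158 DE genes against 1575. edgeR's exact test gave 2536. The log2FC of ITGA3 changed sign, to 0.021 with library totals, 0.025 with a filter of more than 1 CPM in 2 libraries and 0.0052 with the replicate block, and lay at -0.17 to 0.20 over the omissions, as ITGB3 lay at -1.41 to 0.47. DESeq2 and edgeR's exact test called 5 and 5 of the other integrin subunits (6 with the block) against 3. They called 7 and 8 of the adaptors (12) against 5, and 6 and 6 of the membrane partners (7) against 4. Of the matrix ligands they called 10 and 10 (12) against 7, and 4 latent TGF-beta genes were DE with the block. Over all genes the shares were 16% and 17.6%, 28.9% with the block and 11% by the QL test without it. Under Nutlin-3a no member was DE under any alternative, and the pairing as a replicate block left 0 DE members and 1 DE matrix ligand against 0, with 165 DE genes against 23 (91 with DESeq2, 84 with the exact test, 99 without a filter, 7 to 11 with 1 library omitted). Omitting 1 library gave -0.24 to 0.18 for ITGA1, -0.13 to 0.34 for ITGA2, -0.011 to 0.16 for ITGA3, -0.29 to 0.074 for ITGA5, -0.12 to 0.096 for ITGB5 and -0.37 to 0.28 for ITGB8. The cause of these changes was not tested. Other scalings moved the median of all genes by at most 0.036 on the log2 scale. Shares of ITGB6 moved by less than 1 SD with union exon lengths, a setting chosen after seeing the data. Low counts limited ITGB3 in both experiments and the size of the ITGB6 change, which rests on 8 counts in G12V cells. The ITGB3 counts of the G12V libraries also lay far apart.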
